A study of Mus musculus with 19 samples.

Results

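The 8 genes Cyp51, Tm7sf2, Msmo1, Nsdhl, Hsd17b7, Ebp, Sc5d and Dhcr7, which encode the enzymes that turn lanosterol into cholesterol, were followed in the liver of single mice. They were taken by symbol from the 49315 genes with counts in each mouse, and all 8 were among the 15016 genes that passed the filter on low counts. Bulk polyA RNA of whole liver was sequenced from 19 female mice on a C57BL/6N background. The 4 groups were 5 Gramd1c+/+ and 4 Gramd1c-/- mice on a diet with 0.02% cholesterol by weight (low cholesterol), and 5 Gramd1c+/+ and 5 Gramd1c-/- mice on a diet with 0.2% cholesterol (high cholesterol). The mice began their diet at 8 weeks of age and ate it for 4 weeks, and most but not all mice of the study were fasted for 4 h before the liver was taken. Whether all of these 19 were fasted is not given by the labels. Gramd1c encodes Aster-C, a member of a family of proteins that carry cholesterol from the plasma membrane to the endoplasmic reticulum. The knockout was global and used a knockout-first allele, with a lacZ cassette inserted in the gene, and littermates served as controls. The comparisons address whether dietary cholesterol lowers the mRNAs of the cholesterol synthesis pathway and whether the loss of Gramd1c alters them.

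Cholesterol is built from acetyl-CoA through mevalonate, isoprenoids and squalene, and squalene is closed into lanosterol, the earliest sterol of the pathway. The enzymes of the last stretch, all in the endoplasmic reticulum, then strip methyl groups from lanosterol and move and reduce its double bonds. Most genes of this pathway are activated by SREBP2, a transcription factor that is held in the endoplasmic reticulum when sterols there are plentiful and is cut and sent to the nucleus when they are scarce. Liver is one of the main sites of cholesterol synthesis, and dietary cholesterol is known to repress the pathway there. In bulk tissue, fewer cells of a type and less RNA per cell cannot be told apart.

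Promoter sequence is shown for 4 of the genes because the pathway is known for its control at transcription and because these 4 span the range of the response described below. The stretch upstream of the RefSeq start is given 5′ to 3′ on the gene's strand, in build GRCm38.p6, and holds no base of the deposited gene model. In Cyp51 and Hsd17b7 the bases next to that start lie in the gene model and were left out. Of their 250 bases, 201 and 214 are shown. Left out with them were the CCAAT that begins 29 bases upstream in Cyp51 and the ATTGG that begins 12 bases upstream in Hsd17b7, both counted below. Capitals mark TCACCTCA, a match to TCACCNCA (a relaxed form of the sterol regulatory element of the LDL receptor), and CCAAT or its reverse complement ATTGG, the letters bound by the factor NF-Y. Cyp51 (chr5:4104747-4104947, minus strand), Hsd17b7 (chr1:169969242-169969455, minus strand), Nsdhl (chrX:72918271-72918520, plus strand) and Ebp (chrX:8193513-8193762, minus strand) read as follows.
Cyp51: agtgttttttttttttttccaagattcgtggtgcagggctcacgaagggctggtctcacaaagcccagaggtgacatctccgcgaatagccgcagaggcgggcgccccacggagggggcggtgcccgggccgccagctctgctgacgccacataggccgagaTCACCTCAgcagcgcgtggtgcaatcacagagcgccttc
Hsd17b7: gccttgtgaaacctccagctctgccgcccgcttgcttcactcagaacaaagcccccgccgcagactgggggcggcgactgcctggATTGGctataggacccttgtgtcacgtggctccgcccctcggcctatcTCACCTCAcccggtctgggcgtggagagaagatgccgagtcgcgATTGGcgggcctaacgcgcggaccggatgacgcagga
Nsdhl: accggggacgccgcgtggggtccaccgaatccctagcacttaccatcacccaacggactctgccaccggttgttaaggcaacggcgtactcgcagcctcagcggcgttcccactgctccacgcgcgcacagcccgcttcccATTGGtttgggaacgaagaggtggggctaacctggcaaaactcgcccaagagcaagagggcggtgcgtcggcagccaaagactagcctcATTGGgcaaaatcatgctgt
Ebp: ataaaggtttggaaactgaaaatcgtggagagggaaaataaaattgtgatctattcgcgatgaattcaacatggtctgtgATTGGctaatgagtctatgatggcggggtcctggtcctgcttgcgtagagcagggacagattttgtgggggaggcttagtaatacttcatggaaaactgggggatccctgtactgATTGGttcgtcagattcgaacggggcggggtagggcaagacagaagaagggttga

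All 8 genes had a RefSeq window, and 5 sets of letters were searched on both strands of the 250 bases before each start, with every window of a gene counted. CCAAT was in the windows of 8 of 8 members and of 37.5% of the 27025 genes with a window. GGGCGG, the GC box, was also in 8 of 8 members, against 35.4% of genes. CACGTG, the E-box, was in 3 of 8 members, namely Hsd17b7, Sc5d and Dhcr7, against 6.86% of genes. TCACCNCA was in 2 of 8 members, beginning 88 bases upstream of the start in Cyp51 and 117 bases upstream in Hsd17b7, against 4.18% of genes, and TCACCCCAC, which holds TCACCNCA, was in 0 of 8 members and 0.555% of genes. Msmo1 and Hsd17b7 each held 3 matches to CCAAT, and Dhcr7, with 3 windows, held its matches in the last of them only. Such matches describe the letters of these windows and are not evidence of binding.

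Each library held between 27149972 and 34669648 counts (median 30159347), and the members were covered by 298 to 22036 counts per mouse. Gramd1c lay between 9.56 and 16 TPM (counts per gene length, scaled to the same sum in every mouse) in Gramd1c+/+ mice and between 1.07 and 3.61 TPM in Gramd1c-/- mice, so the genotype labels were not contradicted. The tissue label names gonadal adipose tissue while the cell type label names liver. The 6 hepatocyte markers, none at 0 in any mouse, summed in Gramd1c+/+ mice to 96928 to 131950 TPM on the low and 85868 to 115860 TPM on the high diet. In Gramd1c-/- mice they summed to 112680 to 128510 TPM and 82711 to 103350 TPM. This sum was thus lower on high cholesterol without overlap in Gramd1c-/- mice, and its part in the dietary differences given below was not tested. The 6 adipocyte markers summed to between 2.32 and 8.54 TPM in all mice but one. That mouse, the library labelled Gramd1c+/+ low cholesterol replicate 2, held 137 TPM of adipocyte markers and 679 TPM of the 10 adrenal cortex markers, against 36.7 to 54.5 TPM in the others. In it 9 of the 10 adrenal markers were above every other mouse, with the steroidogenic enzyme Cyp11b1 at 66.9 TPM against at most 0.321 elsewhere, while Mrap was at 50.2 TPM within the range of up to 51.4 TPM elsewhere. The adrenal cortex also expresses the cholesterol synthesis genes. A second library, Gramd1c-/- high cholesterol replicate 5, stood apart on the leading principal component over all tested genes, at 83.1 against -46.7 to 38.4 in the others. The 3.61 TPM of Gramd1c came from this library, and the next highest Gramd1c-/- mouse held 2.04 TPM.

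On high cholesterol, 7 of the 8 members were lower than on low cholesterol, in Gramd1c+/+ and in Gramd1c-/- mice alike, and no member was higher. Cyp51, the lanosterol demethylase at the head of the stretch, fell 10.2-fold and 10.4-fold in mean TPM, and Msmo1 and Nsdhl fell nearly as far. Sc5d, close to the end of the stretch, fell to 50.5% and 50.7% of its level on low cholesterol. Ebp, the isomerase between them, kept 78.5% and 81.3% of its level and did not pass the test in either genotype. Over all tested genes, 51 (0.34%) were called lower in Gramd1c+/+ mice and 44 (0.293%) in Gramd1c-/- mice, at a Benjamini-Hochberg adjusted p below 0.05 in edgeR's quasi-likelihood test. The median log2 fold change of the 8 members was -1.96 and -2.12, whereas that of all tested genes was 0.0068 and 0.021. By the size of p, Cyp51 ranked 1, Nsdhl 3 and Msmo1 4 of the 15016 genes in both genotypes. The 7 members were called without replicate 2 of Gramd1c+/+ low cholesterol as well, and without both libraries that stood apart.

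**Figure D1:**
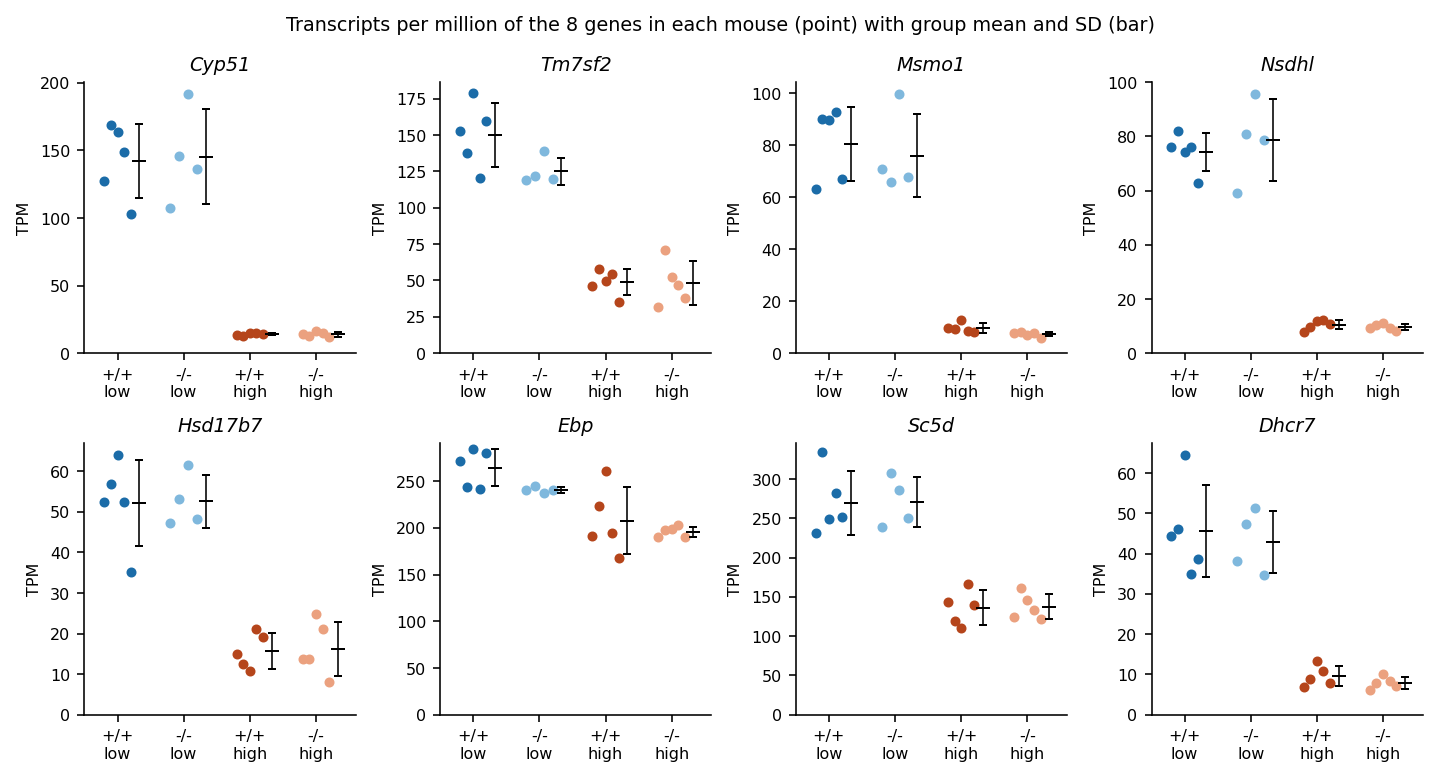
TPM of the 8 genes (vertical axes from 0, 1 panel per gene) in each of the 19 mice by genotype and dietary cholesterol, with the group mean and SD as bars. In 7 panels every mouse on high cholesterol sits below every mouse on low cholesterol, and in the Ebp panel the Gramd1c+/+ groups overlap.

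Cyp51 encodes the cytochrome P450 that removes the methyl group at the ring junction of lanosterol. Its TPM in the 5 Gramd1c+/+ mice on low cholesterol was 127, 169, 164, 149 and 103, and on high cholesterol 13.4, 12.9, 14.8, 14.9 and 14. In Gramd1c-/- mice it was 107, 146, 192 and 136 on low and 14.1, 12.8, 16.0, 15.2 and 11.7 on high cholesterol. Every mouse on high cholesterol lay far below every mouse on low cholesterol, and the mice were closer to each other on the high diet, with a coefficient of variation of 6.23% in Gramd1c+/+ mice against 19.3% on the low diet. The log2 fold change was -3.29 (SE 0.16, adjusted p = 7.63e-11) in Gramd1c+/+ and -3.41 (SE 0.16, adjusted p = 5.07e-11) in Gramd1c-/- mice. Without replicate 2 of Gramd1c+/+ low cholesterol, which had the highest Cyp51 TPM of its group, the log2 fold change was -3.27 (adjusted p = 5.68e-10). Without replicate 3, the highest of that group on log2 CPM, it was -3.205 (adjusted p = 2.46e-10). Cyp51 (ENSMUSG00000001467, chr5:4081145-4104746, minus strand, GRCm38) shares 166 exon bases with Akap9 on the opposite strand, and the library kit is not stated to keep strand. Akap9 held at most 1323 counts in any mouse and did not pass the test for diet (log2 fold change 0.17 and -0.02).

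Tm7sf2 encodes a sterol reductase that acts on the double bond left by Cyp51. It ranged from 120.4 to 179 TPM in Gramd1c+/+ and from 119 to 139 TPM in Gramd1c-/- mice on low cholesterol. On high cholesterol the ranges were 35.5 to 58.1 TPM and 32.0 to 71.0 TPM. The diets did not overlap in either genotype, and the widest relative spread was in Gramd1c-/- mice on high cholesterol (coefficient of variation 31.5%). The log2 fold change was -1.57 (SE 0.20, adjusted p = 0.000132) and -1.41 (SE 0.21, adjusted p = 0.000799). Tm7sf2 (chr19:6062821-6068373, minus strand) shares 1827 exon bases with Vps51 on the same strand, so that reads there could not be told apart by position. Vps51 had between 474 and 715 counts per mouse and did not pass the test for diet (log2 fold change -0.10 and -0.12).

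Msmo1 and Nsdhl act in turn to remove the remaining methyl groups of the sterol, Msmo1 as the oxidase and Nsdhl as the dehydrogenase that releases the carbon. Msmo1 stood at 63.0, 89.98, 89.7, 92.7 and 66.9 TPM in Gramd1c+/+ mice on low cholesterol and at 9.69, 9.33, 12.8, 8.42 and 7.96 TPM on high cholesterol. In Gramd1c-/- mice it stood at 70.6, 65.7, 99.6 and 67.6 TPM on low and at 7.60, 8.09, 7.07, 7.88 and 5.95 TPM on high cholesterol. The diets were apart in every mouse, with replicate 3 of Gramd1c-/- low cholesterol high among its group and replicate 3 of Gramd1c+/+ high cholesterol the highest on that diet. Its log2 fold change was -2.98 (SE 0.20, adjusted p = 1.23e-08) in Gramd1c+/+ and -3.40 (SE 0.21, adjusted p = 2.48e-09) in Gramd1c-/- mice. Nsdhl, which is X-linked, went from a mean of 74.3 ± 7.08 TPM (SD, n = 5) to 10.5 ± 1.76 TPM in Gramd1c+/+ mice and from 78.5 ± 15.1 TPM (n = 4) to 9.64 ± 1.14 TPM (n = 5) in Gramd1c-/- mice. The log2 fold change of Nsdhl was -2.77 (SE 0.14) and -3.05 (SE 0.15), or 7.07-fold and 8.15-fold in mean TPM, and its diet groups did not overlap.

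Hsd17b7, the reductase that closes each round of demethylation by turning the keto group back into a hydroxyl, had the widest relative spread of the members between mice on high cholesterol (coefficients of variation 28% and 40.9%). On that diet its TPM was 15.1, 12.5, 10.7, 21.2 and 19.1 in Gramd1c+/+ mice and 13.6, 13.7, 24.8, 21.1 and 8.05 in Gramd1c-/- mice. On low cholesterol it was 52.4, 56.9, 64.1, 52.5 and 35.2 in Gramd1c+/+ and 47.3, 53.2, 61.6 and 48.3 in Gramd1c-/- mice. The diets still did not overlap, and the lowest value of all came from the Gramd1c-/- library that stood apart. The log2 fold change was -1.72 (SE 0.20, adjusted p = 4.29e-05) and -1.76 (SE 0.21, adjusted p = 3.85e-05), and without both libraries that stood apart it was -1.74 and -1.61.

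Ebp encodes the isomerase that shifts the remaining ring double bond, and its TPM was among the highest of the stretch. In Gramd1c+/+ mice it was at 272, 244, 285, 242 and 280.3 TPM on low and at 192, 224, 261, 194 and 168 TPM on high cholesterol. In Gramd1c-/- mice it was at 240.2, 245, 238 and 241 TPM on low and at 190.3, 197, 198, 203 and 191 TPM on high cholesterol. The Gramd1c+/+ groups overlapped through replicate 3 on high cholesterol, whereas the Gramd1c-/- mice were tightly grouped within each diet (coefficients of variation 1.32% and 2.77%) and did not overlap, as the hepatocyte marker sum did not in these mice. In edgeR, which shares its estimate of the spread over all 4 groups, the log2 fold change was -0.28 (95% interval -0.61 to 0.04, adjusted p = 0.671) in Gramd1c+/+ and -0.32 (95% interval -0.66 to 0.02, adjusted p = 0.454) in Gramd1c-/- mice. Without that Gramd1c+/+ mouse it was -0.46 (adjusted p = 0.301), and without replicate 5 of the same group it was -0.19 (adjusted p = 0.714). In the whole data set, 1.03% of tested genes in Gramd1c+/+ and 0.773% in Gramd1c-/- mice had every mouse on high below every mouse on low cholesterol, compared with 7 and 8 of the 8 members.

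Sc5d adds a double bond to the ring and Dhcr7 reduces one in the last ring reaction. Sc5d was at 231, 334, 249, 283 and 252 TPM in Gramd1c+/+ mice on low cholesterol and at 143, 119.6, 111, 167 and 140 TPM on high cholesterol. In Gramd1c-/- mice it was at 239, 308, 286 and 250.2 TPM on low and at 125, 161, 146, 133 and 122 TPM on high cholesterol. No mouse on high cholesterol reached the lowest mouse on low cholesterol. The log2 fold change of Sc5d was -0.95 (SE 0.11, adjusted p = 4.46e-05) and -1.0 (SE 0.12, adjusted p = 3.45e-05). Dhcr7 went from 45.7 ± 11.4 TPM (SD, n = 5) to 9.55 ± 2.52 TPM in Gramd1c+/+ mice and from 42.9 ± 7.76 TPM (n = 4) to 7.88 ± 1.49 TPM (n = 5) in Gramd1c-/- mice. That was a log2 fold change of -2.20 (SE 0.21, adjusted p = 2.58e-06) and -2.48 (SE 0.22, adjusted p = 7.29e-07), again with no overlap of the diets.

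The order of the members by TPM changed with the diet. TPM was set by the union of annotated exons, not by the length of the expressed transcript, so levels of different genes are compared only roughly. In Tm7sf2, 1827 of 3484 such bases are shared with Vps51. On low cholesterol in Gramd1c+/+ mice, Sc5d (mean 269.9 TPM) and Ebp (264 TPM) were the highest with overlapping ranges, followed by Tm7sf2 (150.0 TPM) and Cyp51 (142 TPM), which overlapped as well. Msmo1 (80.5 TPM) and Nsdhl (74.3 TPM) came next and overlapped with each other. Through 1 or more mice they also overlapped with Hsd17b7 (52.2 TPM) and with Dhcr7 (45.7 TPM), the lowest member. Hsd17b7 and Dhcr7 overlapped as well. On high cholesterol Ebp (208 TPM) led alone, ahead of Sc5d (136 TPM) and Tm7sf2 (48.8 TPM), none of which overlapped with the next. Below them came Hsd17b7 (15.7 TPM), Cyp51 (14 TPM), Nsdhl (10.5 TPM), Msmo1 (9.64 TPM) and Dhcr7 (9.55 TPM), which did not form separate steps. The range of Hsd17b7 overlapped with all of the others, and that of Cyp51 also with Dhcr7. Nsdhl, Msmo1 and Dhcr7 overlapped with each other. Cyp51 thus stood near Tm7sf2 on low cholesterol and among the lowest members on high cholesterol. The summed TPM of the 8 genes was 1079 ± 80.5 (SD, n = 5) and 1032 ± 106 (n = 4) on low cholesterol and 452 ± 34.5 and 436 ± 40.6 (n = 5 each) on high cholesterol, in Gramd1c+/+ and Gramd1c-/- mice. Ebp and Sc5d together made up 49.6% and 49.8% of that sum on low cholesterol and 76.1% and 76.6% on high cholesterol.

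**Figure D2:**
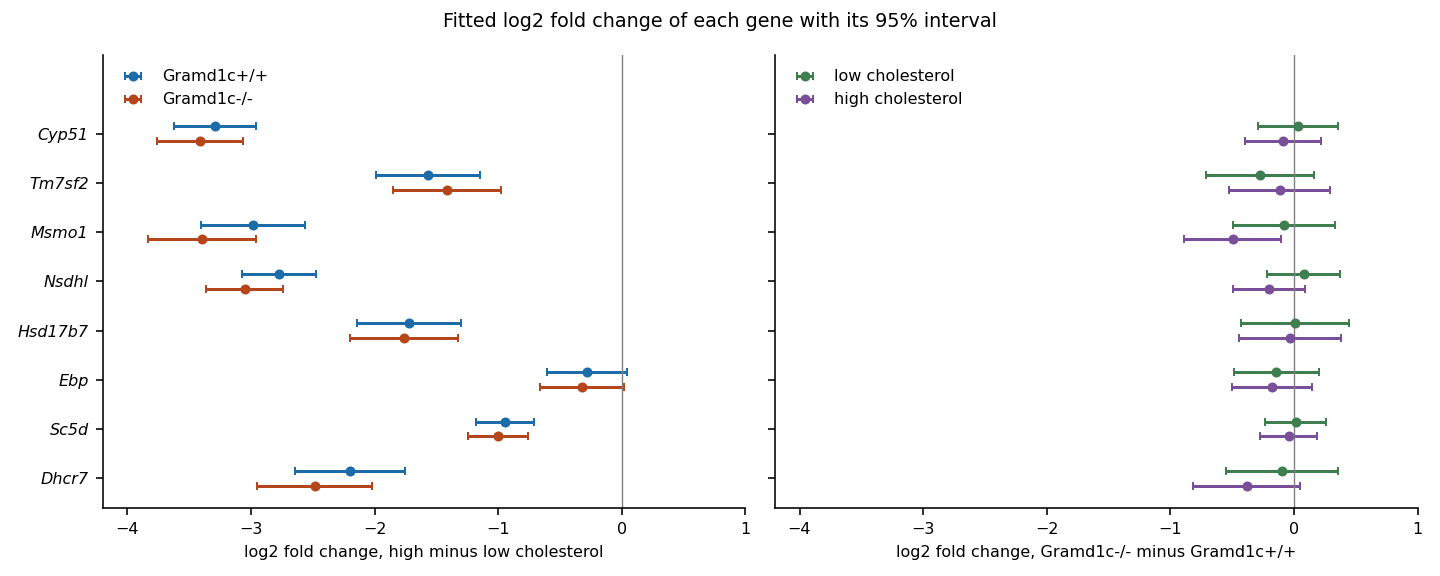
Fitted log2 fold change (horizontal axis) of each gene with its 95% interval, for high minus low cholesterol in each genotype on the left and for Gramd1c-/- minus Gramd1c+/+ on each diet on the right, in the order of the pathway. The dietary intervals lie below 0 for all genes but Ebp, and the genotype intervals include 0 for all but Msmo1 on high cholesterol (-0.89 to -0.10).

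The dietary difference was not equal among the members. To compare them without any library scaling, the log2 ratio of the TPM of 2 members was formed within each mouse and its change between diets was tested, over 28 pairs per genotype, with a two-sided exact permutation test over mice (252 splits in Gramd1c+/+ and 126 in Gramd1c-/- mice, smallest possible p 0.00794) and Benjamini-Hochberg adjustment over the 28 pairs. In Gramd1c+/+ mice 23 of 28 pairs passed, in Gramd1c-/- mice 25 passed, and 23 passed in both with the same direction. Cyp51 fell more than each other member except Msmo1 in both genotypes. Between Cyp51 and Ebp the ratio changed by -2.96 and -3.06 on the log2 scale (adjusted p = 0.0123 and 0.0139, exact permutation test). The ratio of Ebp to each of the other 7 members was higher on high cholesterol in both genotypes, Sc5d included, where it changed by 0.63 and 0.68 (adjusted p = 0.0202 and 0.0139, exact permutation test).

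Neighbours in the order of fall were harder to separate. Cyp51 and Msmo1 did not pass in either genotype (change of the log2 ratio -0.26 and 0.0001, adjusted p = 0.0978 and 1, exact permutation test), nor did Tm7sf2 and Hsd17b7 (0.12 and 0.36, adjusted p = 0.698 and 0.436) or Hsd17b7 and Dhcr7 (0.51 and 0.65, adjusted p = 0.154 and 0.0513). Msmo1 and Nsdhl passed in Gramd1c-/- mice (-0.35, adjusted p = 0.029) and not in Gramd1c+/+ mice (-0.23, adjusted p = 0.288), and Tm7sf2 and Sc5d likewise (-0.46, adjusted p = 0.0444, against -0.64, adjusted p = 0.0556). Whether these pairs differ between the genotypes was not tested.

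**Figure D3:**
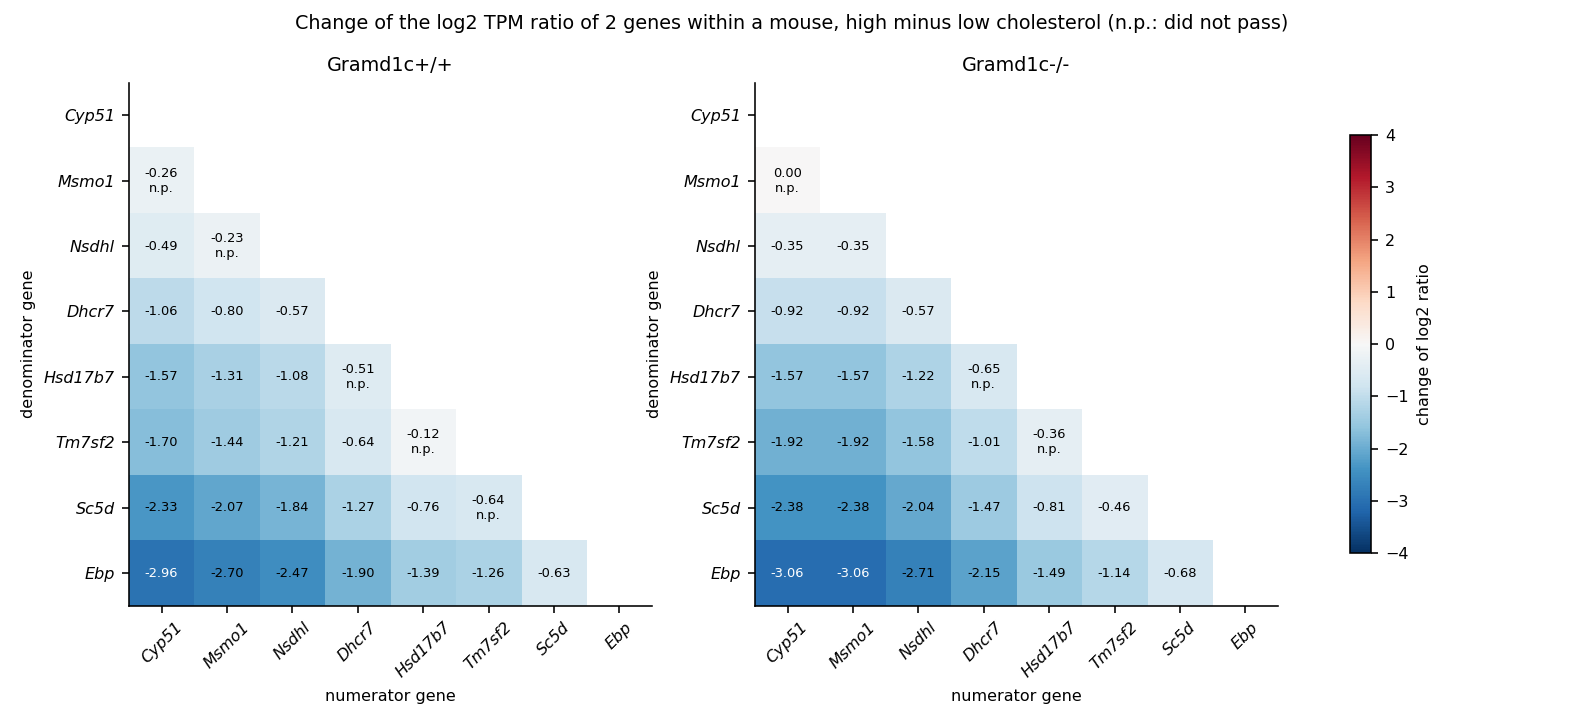
Change between diets (high minus low) of the log2 TPM ratio of 2 genes in the same mouse, with the numerator gene on the horizontal and the denominator gene on the vertical axis, ordered by their fall, in Gramd1c+/+ mice on the left and Gramd1c-/- mice on the right. Pairs marked n.p. did not pass at an adjusted p below 0.05, 5 of 28 on the left and 3 of 28 on the right, and all of them are near the diagonal.

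Between genotypes, 0 of 8 members were called on low and 0 of 8 on high cholesterol. Over all genes 1 gene (0.00666%), Gramd1c itself, was called on low and 1 gene (0.00666%), again Gramd1c, on high cholesterol, with 400 and 364 genes at an unadjusted p below 0.05. On low cholesterol the log2 fold changes of the members, Gramd1c-/- minus Gramd1c+/+, ran from -0.27 (Tm7sf2, 95% interval -0.71 to 0.16) to 0.08 (Nsdhl, -0.22 to 0.38), and 4 of 8 were negative, with the signs of Cyp51, Hsd17b7 and Sc5d depending on the setting. On high cholesterol they ran from -0.50 (Msmo1) to -0.03 (Hsd17b7, 95% interval -0.45 to 0.38), and all 8 were negative. Hsd17b7 became positive without both libraries that stood apart, and Sc5d on log2 TPM. Mean TPM of Hsd17b7 was 16.2 in Gramd1c-/- and 15.7 in Gramd1c+/+ mice. Of the lists given below, all other SREBP2 targets (highest -0.035) and all electron donors and scaffold genes (highest -0.095) were negative too. The steps before lanosterol reached 0.17 and the SREBP2 machinery 0.16. Msmo1 averaged 9.64 ± 1.90 TPM (SD, n = 5) in Gramd1c+/+ and 7.32 ± 0.856 TPM (n = 5) in Gramd1c-/- mice on high cholesterol, and the ranges overlapped. Its unadjusted p was 0.0161 and its adjusted p 1 in edgeR, and among the members it alone had an unadjusted p below 0.05. Without replicate 3 of Gramd1c+/+ high cholesterol the log2 fold change on that diet was -0.29 for Msmo1, -0.15 for Dhcr7 and -0.08 for Nsdhl. The intervals of the genotype effect were within -0.27 and 0.26 for Sc5d on both diets. For Dhcr7 on high cholesterol the interval was -0.81 to 0.05. It includes 0 and does not exclude a fall as large as its lower end.

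The difference of the dietary effect between genotypes was tested as an interaction. It was called for 0 of 8 members and for 0 (0%) of all tested genes in edgeR, where 250 genes had an unadjusted p below 0.05, and DESeq2 also called 0 members. Counted as the knockout's dietary log2 fold change less the wild type's, it was most negative for Msmo1 (-0.41, 95% interval -0.98 to 0.15) and was positive only for Tm7sf2 (0.16, -0.44 to 0.76). The values of Cyp51 (-0.12, -0.57 to 0.32), Nsdhl (-0.28, -0.69 to 0.13) and Dhcr7 (-0.28, -0.91 to 0.34) lay between them. Without replicate 3 of Gramd1c+/+ high cholesterol the interaction was -0.20 for Msmo1, -0.14 for Nsdhl, -0.03 for Dhcr7 and -0.01 for Cyp51. Without replicate 3 of Gramd1c-/- low cholesterol it was -0.25, -0.16, -0.18 and 0.05, and without replicate 3 of Gramd1c+/+ low cholesterol that of Dhcr7 was -0.48. Since the interaction and the genotype comparisons use the same mice as the dietary ones, they are not separate evidence.

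The steps before lanosterol were lower on high cholesterol as well. Of the 11 genes from Acat2 to Lss, 11 were called lower in both genotypes, with median log2 fold changes of -1.99 and -2.18 beside -1.96 and -2.12 for the 8 members. Sqle, the squalene epoxidase, went from a mean of 44.4 to 1.94 TPM in Gramd1c+/+ and from 43.8 to 1.86 TPM in Gramd1c-/- mice (log2 fold change -4.46 and -4.60). Idi1, the isopentenyl diphosphate isomerase, changed by -4.16 and -4.21, and Fdps, which makes farnesyl diphosphate, by -2.99 and -3.22. Lss, the cyclase that makes lanosterol, changed by -1.99 and -2.18, beside -2.20 and -2.48 for Dhcr7 at the other end of the stretch.

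Lbr, a nuclear envelope protein with the same reductase activity as Tm7sf2, was also called lower on high cholesterol. It stood at 6.61 TPM on low cholesterol in Gramd1c+/+ mice, against 150.0 TPM for Tm7sf2, and its log2 fold change was -0.61 (adjusted p = 0.0352) in Gramd1c+/+ and -0.64 (adjusted p = 0.0454) in Gramd1c-/- mice.

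The oxidases and reductases of the stretch need electrons from Por and the cytochrome b5 system, and Erg28 is a scaffold that holds sterol enzymes together. Of the 6 genes in this list, 1 was called, Erg28, which was lower on high cholesterol in both genotypes (-0.92, adjusted p = 0.00302, and -0.96, adjusted p = 0.00352). The log2 fold change was 0.17 (SE 0.28) and 0.20 (SE 0.30) for Por and 0.30 and 0.39 for Cyb5a. It was -0.28 and -0.59 for Cyb5b and -0.29 and -0.36 for Cyb5r3, and none of these 4 passed the test. In the list of 7 genes of the SREBP2 machinery, 2 were lower in both genotypes. Srebf2, which encodes SREBP2, changed by -1.29 and -1.27, and Insig1, which holds the SREBP complex in the endoplasmic reticulum, by -1.28 and -1.27. Scap changed by -0.48 and -0.59 without passing (adjusted p = 0.358 and 0.233). Srebf1 had the other direction without passing (0.53 and 0.20, adjusted p = 0.499 and 0.692). Of 7 other SREBP2 targets 5 were lower in each genotype, among them Rdh11 (-2.10 and -2.18), Stard4 (-1.27 and -1.49) and Acss2 (-1.64 and -1.58). No gene of these lists was called for genotype on either diet or for the interaction.

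**Figure D4:**
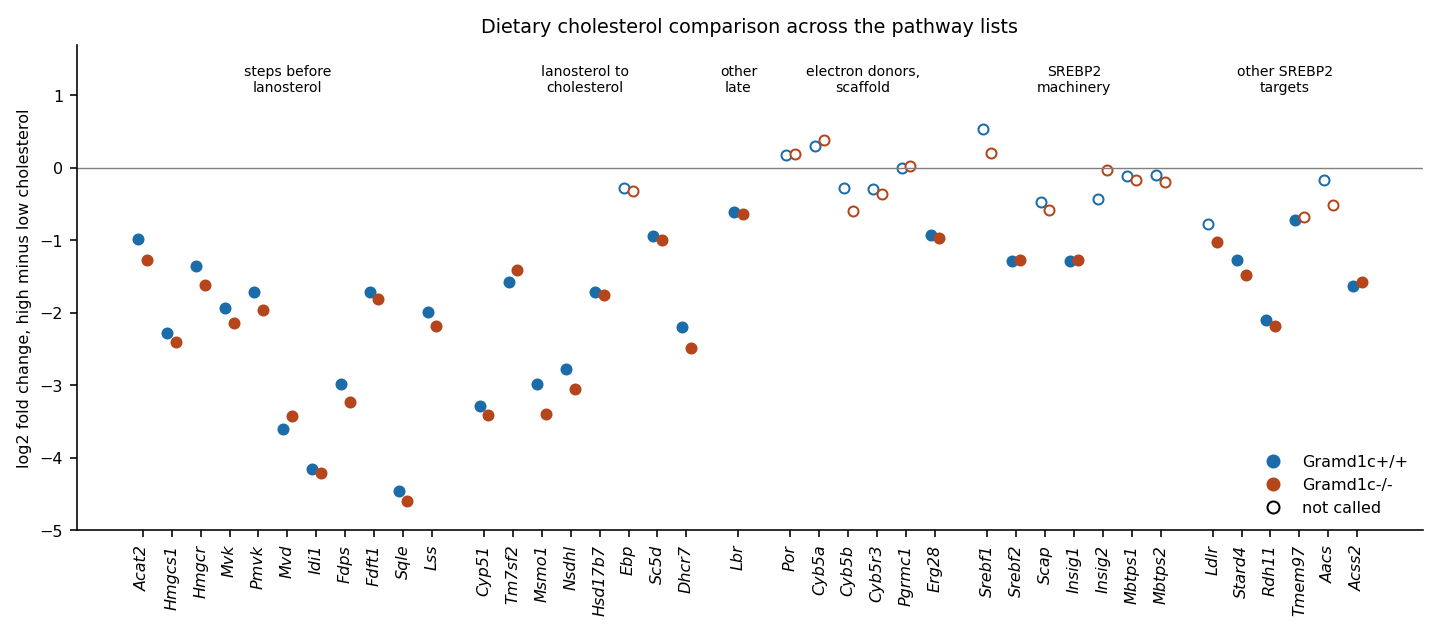
Log2 fold change between diets, high minus low cholesterol (vertical axis), of genes from 6 lists (horizontal axis), in Gramd1c+/+ (blue) and Gramd1c-/- mice (orange), with open circles for genes not called. The 11 steps before lanosterol and 7 of the 8 members are filled and below 0, while 5 of the 6 electron donors and scaffold genes are open.

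Across the 19 mice, the genes whose log2 CPM (counts scaled to library size) were most like the mean of the 8 members were nearly all of the same pathway. As a description, Pearson's r over the 19 mice, which share the dietary contrast, was 0.994 for Fdps, 0.992 for Sqle, 0.991 for Rdh11, 0.988 for Mvk, 0.988 for Lss, 0.984 for Fdft1, 0.979 for Acat2 and 0.975 for Pmvk. Aldoc, also among the leading 10 and an aldolase of sugar metabolism, was in none of the lists (r = 0.974, log2 fold change -1.70 and -2.03). With each group's mean removed, so that the diet no longer counts, the 5 most alike were Acat2 (0.895), Klhdc3 (0.875), Rnf187 (0.847), Mvk (0.845) and Rdh11 (0.838). Klhdc3 and Rnf187, which belong to none of the lists, did not pass the test for diet (log2 fold changes -0.15 and -0.16, and -0.22 and -0.11). The median r of all other tested genes with the mean of the members was -0.00085 by that measure, and 90% of them lay between -0.504 and 0.504.

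Within groups, the deviations of the members on log2 CPM were compared by pairs. Of the 28 pairs of members, 24 had a positive r of their deviations from the group means, with a median of 0.316, a highest value of 0.735 for Cyp51 and Nsdhl and a lowest of -0.396 for Hsd17b7 and Ebp. Dhcr7 was the most alike to the others (median r 0.588) and Hsd17b7 the least (0.0333). The same share was not computed for pairs of other genes or on TPM, so these values are a description only. Replicate 3 of Gramd1c+/+ low cholesterol was above its group's mean in 7 of 8 members (mean deviation 0.28 on the log2 scale), and so was replicate 3 of Gramd1c-/- low cholesterol (0.25). Replicate 3 of Gramd1c+/+ high cholesterol was above in 6 of 8 (0.32), with Dhcr7 at 0.73 and Msmo1 at 0.65 but Hsd17b7 at -0.28. Replicate 4 of Gramd1c-/- low cholesterol was below its group's mean in all 8 members (mean deviation -0.17). The library with adrenal markers was above its group's mean in 2 of 8 members on log2 CPM (mean deviation -0.08) but in 6 of 8 on TPM, so its position depended on the scale. On TPM, replicate 4 of Gramd1c-/- low cholesterol was above in 1 of 8. Other mice moved as well. In replicate 3 of Gramd1c-/- high cholesterol the count went from 2 of 8 on log2 CPM to 7 of 8 on TPM. In replicate 2 of Gramd1c+/+ high cholesterol it went from 5 of 8 to 2 of 8. Whether the members of a mouse lay above or below their group's mean thus depended on the scale in several mice. Hsd17b7 in the Gramd1c-/- high cholesterol library that stood apart had the lowest single deviation (-0.78).

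**Figure D5:**
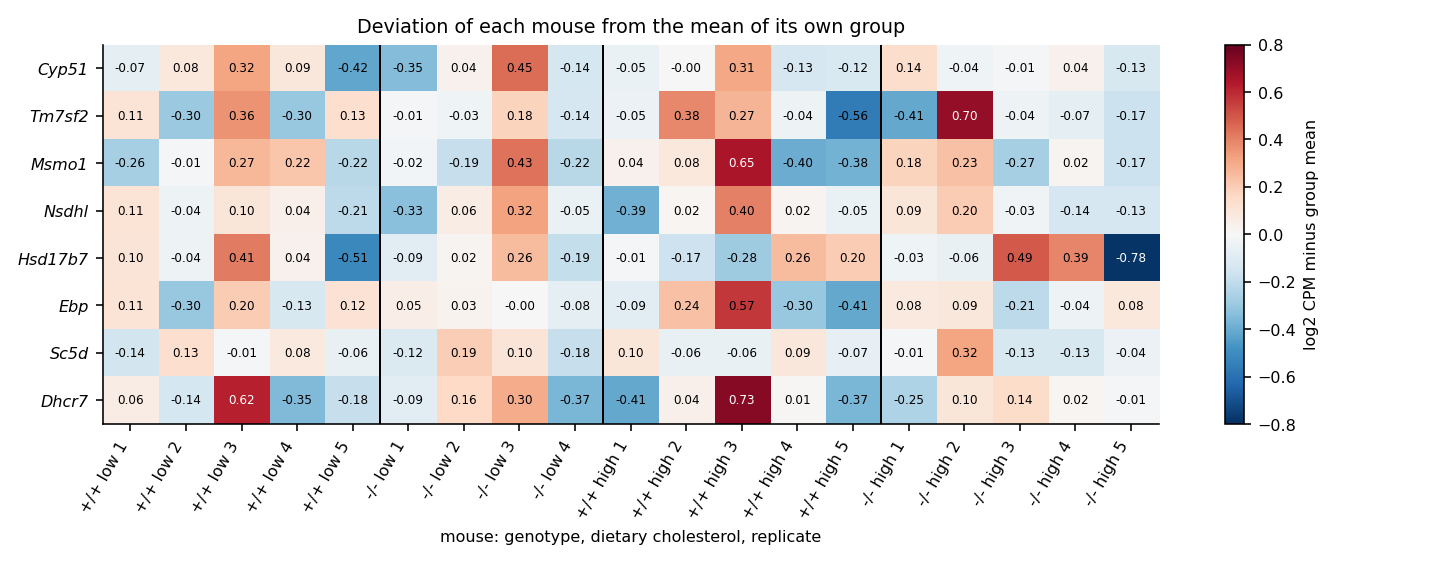
Deviation of log2 CPM from the mean of the mouse's own group, for 8 genes (vertical axis) in 19 mice (horizontal axis, black lines between groups), in red above and in blue below the mean. Columns of 1 colour, such as replicate 4 of Gramd1c-/- low cholesterol, are mice in which the members moved together on this scale. The row of Hsd17b7 departs from the others on high cholesterol.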

How the data were processed

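Liver RNA of 19 mice was sequenced, 1 library per mouse. For every mouse the authors deposited unnormalized counts for Ensembl genes beside gene positions and lengths. STAR 2.5.2b and GRCm38 are named in the submitters' processing notes, whereas the sources used here name no counting tool or strand setting. Symbols were matched for 48970 of 49315 identifiers. The tests used edgeR 4.0.16 under R 4.3.3 (TMM, filterByExpr with a minimum count of 10, 1 coefficient per group over all 19 mice, quasi-likelihood F test, Benjamini-Hochberg over 15016 genes, called below 0.05, intervals at 95%). The common biological coefficient of variation was 0.255. TPM was computed from counts and the deposited lengths, which cover the union of exons, and log2 CPM with a prior count of 2. Pairs of members were compared by exact permutation tests with scipy 1.17.1. Both tests were checked on simulated data. No pair of mice within a group agreed within sampling noise (lowest chi-square per gene 30.5). Alternatives were RLE scaling, DESeq2 1.42.0, no filter, a minimum count of 50, only the groups compared, a replicate block, a term for 2 runs of animal numbers, limma 3.58.1 on log2(TPM + 1) or log2(TPM + 0.1), and leaving out mice. Replicate numbers did not pair the mice.

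The members and lists were chosen with earlier results of these data known. Named genes were all members, up to 4 genes per list with the smallest p for diet in Gramd1c+/+ mice, the 10 genes most like the members over mice and the 5 most like them within groups, and Gramd1c. Por was named in addition. Promoter windows of RefSeq were cut to the 250 bases before each start. A few genes of these lists are left out of the text and plots.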

Additional observations from a re-analysis of the deposited data

Results flagged for a closer look

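In a group of 4 to 10 mice, a value was singled out when its gap to the nearest other mouse was large for the range of the group by Dixon's criterion. Of 32 groups tested, 2 held such a value, and chance singles out about 1 in 20 groups. Both came from replicate 3 of Gramd1c-/- low cholesterol, where Tm7sf2 stood at 139.05 TPM (gap over range 0.851) and Msmo1 at 99.552 TPM (0.854), each the highest of its 4 mice.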

How the results depend on the processing

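For diet, 7 members were called lower in each genotype under all 10 other settings and without any single mouse, and no member's dietary change turned its direction or its side of the threshold. Over all genes, DESeq2 called 83 lower in Gramd1c+/+ mice in place of 51. For genotype and the interaction, 0 members were called under every setting. Without single mice, 21 to 24 pairs of members passed in either genotype. Replicate numbers did not pair the mice (mean r of same-numbered mice -0.0689, 5 of 27 over 0.1, and 1 mouse best with its own number). With the replicate block, 7 members were called lower in each genotype, and the genes called lower over all genes numbered 41 and 34.

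Genotype effects and interactions that were not called and lay near 0 changed sign. On low cholesterol Hsd17b7 was -0.0001416 with RLE scaling, -0.0001524 with DESeq2, -0.01181 without the filter, -0.006043 with only the groups compared, -0.05199 with the replicate block, -0.03284 with the term for animal numbers and -0.008398 without both libraries that stood apart. Sc5d was -0.003919 without the filter, -0.002006 with only the groups compared, -0.004938 with the replicate block and -0.003174 with the animal number term, and Cyp51 was -0.02817 with the replicate block. On high cholesterol Hsd17b7 was 0.1182 without both libraries, and Sc5d was 0.01977 and 0.01995 by limma on log2(TPM + 1) and log2(TPM + 0.1). For the interaction Hsd17b7 was 0.1265 without both libraries, Ebp 0.002117 with the replicate block, 0.0625 and 0.06272 by limma and 0.01083 without both libraries, and Sc5d 0.01064 and 0.01078 by limma. Without single mice the ranges that crossed 0 were, on low cholesterol, -0.1393 to 0.1386 for Cyp51, -0.04065 to 0.1787 for Nsdhl, -0.101 to 0.1222 for Hsd17b7, -0.05516 to 0.07109 for Sc5d and -0.2035 to 0.09177 for Dhcr7. On high cholesterol they were -0.1261 to 0.001236 for Cyp51 and -0.1543 to 0.118 for Hsd17b7. For the interaction they were -0.2287 to 0.04906 for Cyp51, -0.036 to 0.2881 for Tm7sf2, -0.1562 to 0.11 for Hsd17b7, -0.1324 to 0.1503 for Ebp and -0.1162 to 0.01184 for Sc5d. Uncalled values moved by over 1.5 times without single mice also where their range did not cross 0, as for Msmo1 on high cholesterol (-0.5896 to -0.2919) and for the interaction of Msmo1 (-0.5093 to -0.1952), Nsdhl (-0.3808 to -0.1446) and Dhcr7 (-0.4752 to -0.03215). The causes were not tested. With 4 or 5 mice per group, genotype effects within the intervals given were not excluded.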
